A study of Mus musculus with 11 samples.

Results

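Mouse regions that carry imprinting control elements were followed by CpG methylation in ER-Hoxa9-Lys-GFP cells. The regions are 10 windows of 3000 to 6000 bp, named H19, Kcnq1ot1, Snrpn, Peg3, Mest, Peg10, Grb10, Igf2r, Plagl1 and Nnat. Each is defined by its mm9 coordinates, and every CpG that the deposited tables list inside a window was taken. This gave 10 of the 186182 regions of chromosomes 1 to 19 and X that hold a listed CpG, and 209 of their 1480817 listed CpGs. Of the 209 CpGs, 148 had at least 1 read in every library.

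The libraries are reduced representation bisulfite sequencing (RRBS), which reads methylation at CpG-rich restriction fragments. ER-Hoxa9-Lys-GFP cells are cultured C57BL/6 mouse cells, and the estradiol (E2) in the medium keeps the estrogen-receptor-fused Hoxa9 active. The series holds 11 libraries in 6 groups, all of these same cells: 1 kept in E2 throughout; pairs held without E2 for 24, 40, 56 or 72 h and then given E2 back for 96, 80, 64 or 48 h; and 2 held without E2 for 120 h with none given back. A longer absence always went with a shorter return, so these cannot be told apart, and the labels do not say whether replicates were separate cultures. Listed CpGs carried 8234933 to 46899896 reads summed over CpGs per library, and the 40 and 56 h libraries were the shallowest.

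Imprinted genes are expressed from the copy inherited from a single parent. Their control regions are methylated in the egg or the sperm, and that mark is kept on a single parental copy in body cells, so that reads from a normal diploid tissue are expected to be a mixture of methylated and unmethylated ones. The H19 control region is methylated on the paternal copy and the other 9 loci carry a maternal mark. All statements below refer to the windows, since no mm9 gene models were at hand, and it was not tested which listed CpGs lie within the control element itself.

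At the CpGs read in every library, all windows but 1 were almost fully methylated, and the Kcnq1ot1 window alone lay at an intermediate level. These CpGs cover only a small part of some windows, such as chr7:6682973-6683038 at Peg3 and chr6:4697355-4697489 at Peg10. The rest of those windows was not measured in all libraries. Over the 148 CpGs read in all 11 libraries, the mean methylation of the libraries was 93.4% to 98.5% in the 9 windows, and 39.6% ± 4.92 (SD, n = 11) at Kcnq1ot1. Of the 99 values that 9 windows in 11 libraries give, 96 were at least 90% and the lowest was 86.7%. In reads summed per window, the mixture that the background above describes was not seen in 9 of the 10 windows. This held in cells kept in E2 as in cells without it. Single CpGs differed, as 6 of the 139 in these 9 windows were at 20% to 80%, in H19, Mest, Plagl1 and Nnat. A description at 5 or more reads in every library was possible for 3 windows only (Snrpn, Grb10 and Plagl1), and all 3 were above 90%.

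**Figure D1:**
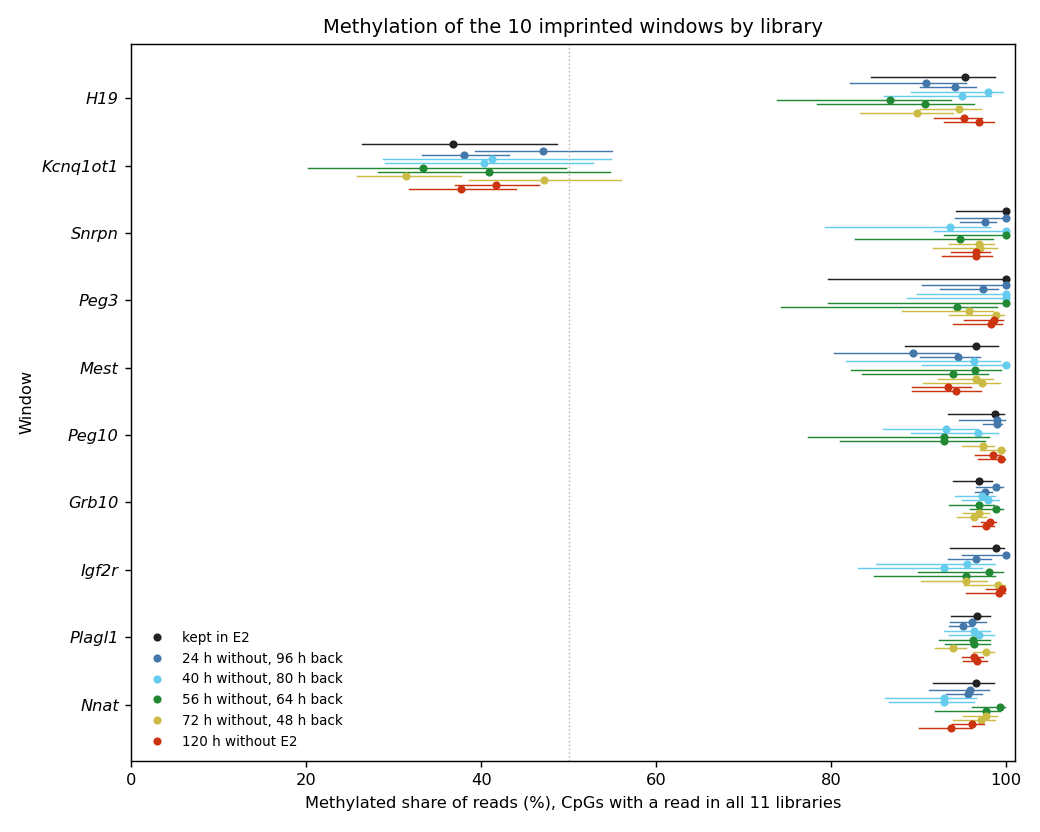
Methylated share of reads (x axis, %) in each of the 10 windows (y axis), with 1 point per library coloured by group and its 95% Wilson interval. The Kcnq1ot1 points lie between 31.4% and 47.2%, and the other 9 windows lie at 86.7% or above.

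The Plagl1 window was the only one in which a RefSeq promoter could be recognised. Promoter sequences (250 bases before to 50 bases after the gene start, RefSeq, GRCm38.p6) were found for 8 of the 10 genes, and each was slid along the listed CpGs of its chromosome until the spacing of its CGs matched at least 6 listed CpGs, with every listed CpG in the stretch falling on a CG. This placed the promoters of Plagl1, Grb10 and Igf2r and that of Blcap, the gene in which Nnat lies. Their sequences are shown because their methylation differed: high at Grb10 and Igf2r, mixed at Plagl1 and near 0 at Blcap. Capitals mark the CGs that are listed in at least 1 library, 5′ to 3′ on the gene's strand:
Plagl1: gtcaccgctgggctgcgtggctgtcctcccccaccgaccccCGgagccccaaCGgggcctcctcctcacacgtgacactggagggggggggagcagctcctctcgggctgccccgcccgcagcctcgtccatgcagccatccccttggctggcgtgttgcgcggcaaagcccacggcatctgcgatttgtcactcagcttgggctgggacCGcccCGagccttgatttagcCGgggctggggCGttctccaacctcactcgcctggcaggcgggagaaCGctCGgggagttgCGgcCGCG
Grb10: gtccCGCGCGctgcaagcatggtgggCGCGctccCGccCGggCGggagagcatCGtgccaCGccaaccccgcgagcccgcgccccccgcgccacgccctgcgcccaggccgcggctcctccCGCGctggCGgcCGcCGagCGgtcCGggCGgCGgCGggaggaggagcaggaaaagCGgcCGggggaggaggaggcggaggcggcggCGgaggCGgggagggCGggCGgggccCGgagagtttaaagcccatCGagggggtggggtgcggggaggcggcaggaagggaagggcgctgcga
Igf2r: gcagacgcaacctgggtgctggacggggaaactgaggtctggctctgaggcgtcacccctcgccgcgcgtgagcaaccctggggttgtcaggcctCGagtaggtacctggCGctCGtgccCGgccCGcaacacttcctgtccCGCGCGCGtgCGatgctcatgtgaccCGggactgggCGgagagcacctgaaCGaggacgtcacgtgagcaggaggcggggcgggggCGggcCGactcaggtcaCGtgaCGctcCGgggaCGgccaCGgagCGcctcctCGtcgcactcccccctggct
Blcap: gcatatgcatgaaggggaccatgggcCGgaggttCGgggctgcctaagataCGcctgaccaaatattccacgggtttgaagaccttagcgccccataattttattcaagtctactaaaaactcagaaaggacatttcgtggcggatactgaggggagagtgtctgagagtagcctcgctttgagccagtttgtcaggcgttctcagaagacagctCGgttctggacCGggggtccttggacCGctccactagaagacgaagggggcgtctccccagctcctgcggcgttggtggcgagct

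The Plagl1 sequence matched 11 listed CpGs at chr10:12810388-12810687, inside the window. The Grb10 sequence matched 28 at chr11:11937374-11937673, which lies 9374 bp outside its window. The Igf2r sequence matched 22 at chr17:12962523-12962822, 25523 bp outside, and the Blcap sequence 6 at chr2:157392048-157392347, 4048 bp outside the Nnat window. The promoters of Kcnq1ot1, Snrpn, Peg3, Mest and Nnat could not be placed in this way. The hexamer TGCCGC, the motif bound in its methylated form by ZFP57, a zinc finger protein that protects imprints in the early embryo, was searched on both strands. It was present in the Plagl1 and Nnat promoters, in 1 of the 2 Grb10 promoters (the one printed), in 2 of the 3 Mest promoters and in 1 of the 4 Snrpn promoters, and it was found in 11.61% of all 32851 promoters of the same length. None of the matched CpGs lay within it.

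H19 is a non-coding RNA gene whose control region, lying between H19 and Igf2, carries the only paternal mark of the set. Its window (chr7:149763000-149769000) held 9 CpGs read in all libraries. Methylation was 95.3% in the E2 library, 90.8% and 94.1% at 24 h, 97.9% and 94.9% at 40 h, 86.7% and 90.7% at 56 h, 94.6% and 89.8% at 72 h, and 95.2% and 96.9% at 120 h. The 2 libraries of 56 h were among the lowest, with 45 and 43 reads. Within the window, the lowest 500-bp tile (chr7:149764001-149764500) stood at 86.7% and the highest (chr7:149767001-149767500) at 98.2%. The lower tile holds a CpG at 149764070 that was methylated in 61.1% of 90 reads, and without it the tile stood at 95.2% of 270 reads.

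Kcnq1ot1 is a long non-coding RNA transcribed antisense within Kcnq1, and its promoter region is the maternally marked control element that silences the surrounding genes on the paternal copy. Its window (chr7:150480000-150483000) was the only intermediate one. Methylation was 36.8% in the E2 library, 47.1% and 38.0% at 24 h, 41.2% and 40.3% at 40 h, 33.3% and 40.8% at 56 h, 31.4% and 47.2% at 72 h, and 41.7% and 37.7% at 120 h. In these summed reads the widest gap was between the 72 h replicates, and every group lay within the range that these 2 libraries span. Weighting each CpG equally changed both. The 72 h libraries then stood at 32.45% and 41.56%, and the 24 h libraries, now the widest apart, at 49.24% and 39.18%. The E2 library stood at 43.33%, above both 72 h libraries. Pooled over libraries, 701 of 1776 reads were methylated, which is 39.5% (95% Wilson interval 37.2% to 41.8%).

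All 9 CpGs of the Kcnq1ot1 window were partly methylated, meaning a mean of 20% to 80% over libraries. They fell into 2 short stretches. The first, chr7:150481280-150481374 with 5 CpGs, was 44.1% methylated over 938 reads. The second, chr7:150481504-150481522 with 4 CpGs, was 34.2% methylated over 838 reads. In the first stretch, libraries ranged from 27.6% to 55.0%, and in the second from 13.5% to 60.0%. The 72 h libraries stood at 46.4% and 55.0% in the first stretch, and at 13.5% and 25.0% in the second, where they were the lowest of all. These values come from 104 and 32 reads in the second stretch. A read that spans neighbouring CpGs is counted at each of them, so the intervals are narrower than the number of molecules allows.

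**Figure D2:**
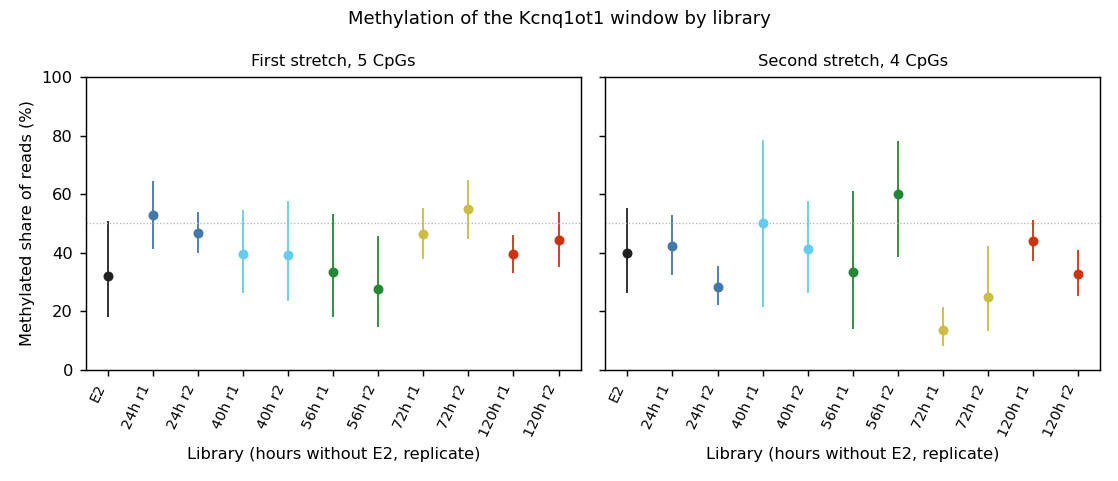
Methylated share of reads (y axis, %) with its 95% Wilson interval in each library (x axis, hours without E2 and replicate number) for the 2 stretches of the Kcnq1ot1 window. The first stretch ranges from 27.6% to 55.0% and the second from 13.5% to 60.0%, with the 72 h libraries lowest in the second.

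The Igf2r window (chr17:12933000-12937000) lies within the gene of the receptor that takes up and degrades insulin-like growth factor 2, where the maternal mark covers the start of the non-coding RNA Airn. Its 14 CpGs were 98.8% methylated in the E2 library, 100% and 96.6% at 24 h, 95.6% and 92.9% at 40 h, 98.1% and 95.5% at 56 h, 95.4% and 99.1% at 72 h, and 99.6% and 99.2% at 120 h. None of them was partly methylated, and its tiles stood at 97.4% (chr17:12935001-12935500) and 97.6% (chr17:12934001-12934500). The Igf2r promoter, outside the window, was 95.9% methylated over 15 CpGs and 2959 reads, with libraries between 90.6% and 99.1%.

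Snrpn encodes a spliceosomal protein, and its promoter region is part of the control centre of the Prader-Willi/Angelman domain. Its window (chr7:67147000-67152000, 8 CpGs) was 100% methylated in the E2 library, 100% and 97.6% at 24 h, 93.5% and 100% at 40 h, 100% and 94.7% at 56 h, 96.9% and 97.0% at 72 h, and 96.6% and 96.6% at 120 h. Peg3 encodes a zinc finger protein, and its window (chr7:6678000-6684000) held only 4 CpGs, with libraries between 94.4% and 100% and as few as 15 reads in a library. Mest encodes a protein of the hydrolase fold. Its window (chr6:30684000-30690000, 6 CpGs) ranged from 89.3% to 100% over libraries, with a median of 96.3%. A single Mest CpG, at 30685508, was methylated in 26 of 52 reads, and the other 5 were at 90% or more. Snrpn and Mest had 1 tile each with 3 or more CpGs, at 97.6% (chr7:67149501-67150000) and 97.1% (chr6:30689001-30689500).

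Peg10, a gene derived from a retrotransposon and needed in the placenta, had 8 CpGs in its window (chr6:4695000-4700000), all in the tile chr6:4697001-4697500, with 98.1% of reads methylated. They were 98.8% methylated in the E2 library, 99.0% and 98.9% at 24 h, 93.2% and 96.8% at 40 h, 92.9% and 92.9% at 56 h, 97.4% and 99.5% at 72 h, and 98.4% and 99.4% at 120 h. The 40 and 56 h libraries were lower than all the others, and they rest on 28 to 88 reads each. Nnat, which encodes a small membrane proteolipid and lies within Blcap, had 21 CpGs in its window (chr2:157384000-157388000). Its levels were 96.6% in the E2 library, 95.8% and 95.6% at 24 h, 92.9% and 92.9% at 40 h, 99.3% and 97.6% at 56 h, 97.7% and 97.2% at 72 h, and 96.1% and 93.7% at 120 h. Here the 40 h libraries were the lowest and a 56 h library the highest. In Nnat, the lowest tile (chr2:157385001-157385500, 3 CpGs) stood at 79.0% over 195 reads and held the window's 2 partly methylated CpGs, at 157385320 with 73.6% and at 157385326 with 70.3%. The highest tile (chr2:157387501-157388000) stood at 97.7%.

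Grb10 and Plagl1 had the most CpGs. Grb10 encodes an adaptor protein that restrains insulin and growth factor signalling, and the 39 CpGs of its window (chr11:11924000-11928000) gave the narrowest spread, 97.6% ± 0.82 (SD, n = 11), with libraries between 96.4% and 98.8%. Its 500-bp tiles ran from 96.9% (chr11:11926501-11927000) to 97.8% (chr11:11926001-11926500, 28 CpGs). The Grb10 promoter printed above, outside the window, was 97.9% methylated over 16 CpGs and 1842 reads. Plagl1 encodes a zinc finger transcription factor that slows cell growth, and the 30 CpGs of its window (chr10:12809000-12812000) averaged 96.2% ± 1.0 (SD, n = 11), with libraries between 93.9% and 97.7%.

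At the CpGs read in all libraries, the Plagl1 window showed a step in level. Its 2 farthest upstream CpGs of those read in all libraries, at 12810429 and 12810440, are positions 42 and 53 of the printed promoter, counted from its 5′ end. They were 45.6% methylated over 136 reads and 68.7% over 134 reads. The tile that follows (chr10:12810501-12811000, 28 CpGs) was 98.1% methylated over 5035 reads. A further CpG, at position 216 of the promoter, lies within this tile but was read in 10 libraries only. It is therefore not part of the 98.1%. It stood at 65.8% of 149 reads between neighbours at 97.9% and 96.4%. The 4 promoter CpGs with a read in all libraries had a pooled level of 77.8% (95% Wilson interval 74.1% to 81.0%).

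**Figure D3:**
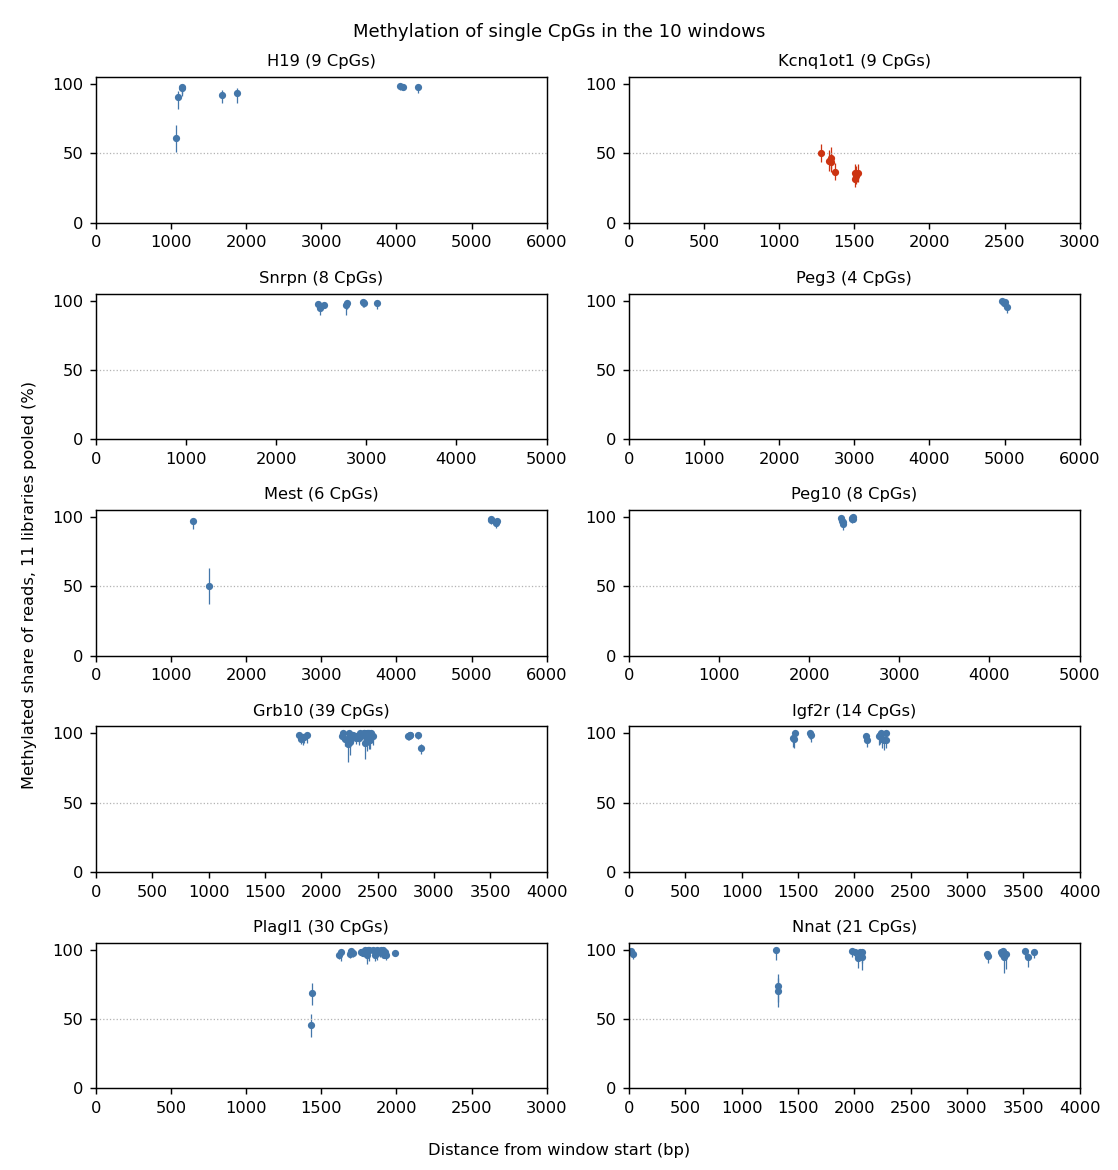
Methylated share of reads pooled over the 11 libraries (y axis, %) with its 95% Wilson interval for each CpG, by distance from the window start (x axis, bp), in a panel per window. All 9 CpGs of Kcnq1ot1 (red) are intermediate, and 6 CpGs of H19, Mest, Plagl1 and Nnat fall between 20% and 80% beside neighbours near full methylation.

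Over all 10 windows, 15 of 148 CpGs (10.14%) were partly methylated and 130 (87.84%) were at 90% or more. Kcnq1ot1 held 9 of the 15, and the other 9 windows 6 of 139 (4.32%). Among the 1137389 autosomal CpGs outside the windows, 10.13% were partly methylated, 52.63% were at 90% or more and 29.15% were below 10%. No CpG in the windows was below 20%. These shares are descriptions, since neighbouring CpGs are not independent.

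The Grb10 and Plagl1 windows also held CpGs in dense surroundings, counted as 15 or more listed CpGs within 100 bp; such CpGs are mostly unmethylated in these cells. There were 48, 27 in Grb10 and 21 in Plagl1, and none in the other 8 windows. All 48 were at 90% or more. Outside the windows, 18.38% of 186701 such CpGs were at 90% or more and 73.64% were below 10%. On chromosome X, 61.28% of the 2908 dense CpGs lay between 20% and 80%, with a median of 57.3%. Of 104602 windows of 5 kb elsewhere, 56.55% were at 90% or more, and the median was 92.0%. In the same set 16.39% lay between 20% and 80%, 5.56% between 35% and 65%, and 1.33% between 35% and 45%, where Kcnq1ot1 lay. Grb10, Plagl1 and Nnat each had 20 or more CpGs and were above 90%, as were 32.66% of the 12843 windows of 5 kb with that many CpGs.

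**Figure D4:**
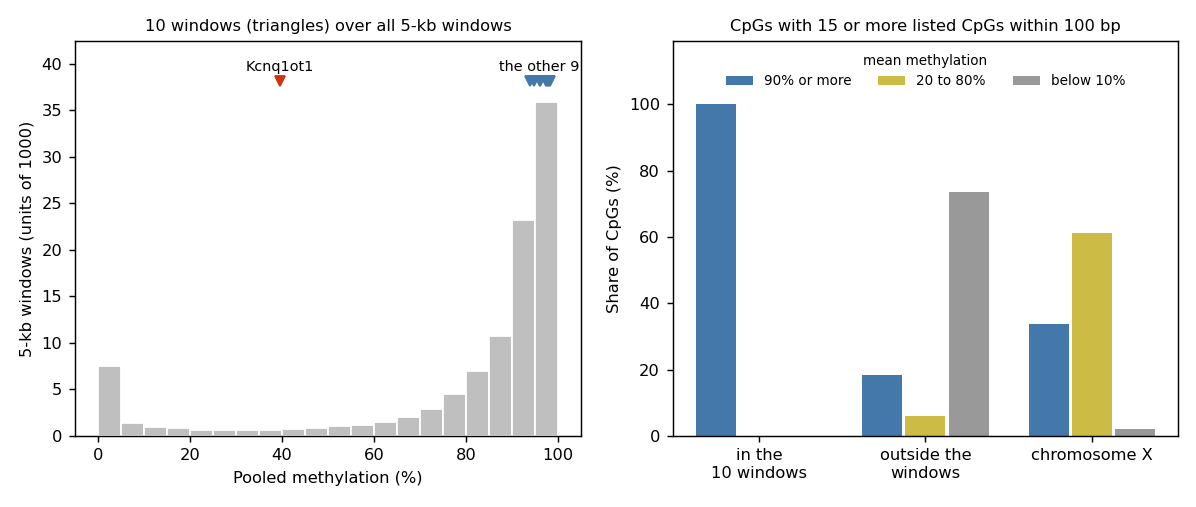
Left: number of 5-kb windows (y axis, in units of 1000) by pooled methylation (x axis, %), with the 10 imprinted windows as triangles. Right: share of dense CpGs (y axis, %) at 90% or more, at 20% to 80% and below 10%. All 48 dense CpGs in the windows, which come from Grb10 and Plagl1 only, are at 90% or more, against 18.38% outside them and 33.77% on chromosome X.

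The design asks whether methylation changes with the absence of E2 and after its return. No imprinted window passed a Benjamini-Hochberg adjusted p of 0.05 in any of 6 tests, which used a quasi-binomial model of methylated and unmethylated reads fitted to all windows at once. With 5 or more reads per CpG in every library, the model could test Snrpn, Grb10 and Plagl1 among 40915 windows. With 1 or more reads it tested all 10 among 104511. Differences from this model are between reads pooled over the libraries of a group, so the deeper library of a pair weighs more, and the difference of the library means is given beside them where it departs.

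For any difference among the 6 groups, 0 of 10 windows passed at 1 or more reads and 0 of 3 at 5 or more, where 0.0498% and 0.0415% of all windows passed. At an unadjusted p under 0.05 there were 2 windows at 1 or more reads, Peg10 (p = 0.0361, adjusted p = 0.736 by the quasi-binomial model) and Nnat (p = 0.0487, adjusted p = 0.746 by the same model). That is 2 of 10, where 6.68% of all windows were under this threshold. With 5 or more reads there were 0 such windows. A limma fit that weights each CpG equally passed 0 of 3 windows, with Snrpn under 0.05 before adjustment (adjusted p = 0.512 by limma), as were 8.51% of all windows.

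After 120 h without E2, against cells kept in E2, 0 of 10 and 0 of 3 windows passed (0.00191% and 0.00244% of all windows), and 0 were under an unadjusted p of 0.05. The Kcnq1ot1 window was 41.7% and 37.7% methylated at 120 h and 36.8% in the E2 library, a difference of 3.42 percentage points in pooled reads, with a 95% interval of -12.25 to 19.1, and of 2.91 points in library means. For Grb10 the difference was 1.1 points (interval -1.52 to 3.72) at 1 or more reads and -0.56 points (interval -4.95 to 3.84) at 5 or more, so its sign depended on the minimum. For Plagl1 it was -0.14 points (interval -3.26 to 2.99) and 0.36 points (interval -3.24 to 3.97), again with both signs. The E2 group is 1 library, and its spread is taken from the other groups. The limma fit again placed Snrpn under 0.05 before adjustment (difference -3.73 points, adjusted p = 0.624 by limma), as were 6.6% of all windows, and passed 0 of 3.

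After 120 h without E2, against 24 h without and 96 h back in E2, 0 of 10 and 0 of 3 windows passed (0.0507% and 0.0513% of all windows), with 0 under an unadjusted p of 0.05 in the quasi-binomial model. Kcnq1ot1 differed by -0.51 points in pooled reads (interval -7.88 to 6.86) and by -2.87 points in library means. Igf2r had the smallest unadjusted p, with 99.6% and 99.2% at 120 h against 100% and 96.6% at 24 h, a difference of 2.05 points in pooled reads (interval -0.41 to 4.5) and of 1.09 points in library means. The limma fit passed 0 of 3 windows, and Snrpn was under 0.05 before adjustment (difference -3.14 points, adjusted p = 1.0 by limma), as were 2.46% of all windows.

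After 72 h without E2 and 48 h back, against cells kept in E2, 0 of 10 and 0 of 3 windows passed (0.00861% and 0.00733% of all windows), with 0 under an unadjusted p of 0.05. Kcnq1ot1 differed by 0.17 points in pooled reads (interval -16.09 to 16.42) and by 2.54 points in library means. Set against the 24 h group instead, 0 of 10 and 0 of 3 passed (0.0555% and 0.0587% of all windows), again with 0 under an unadjusted p of 0.05. In that comparison Kcnq1ot1 differed by -3.77 points in pooled reads (interval -12.31 to 4.77) and by -3.24 in library means. Mest differed by 3.81 points in pooled reads (interval -0.68 to 8.29) and by 5.0 in library means. Grb10 had the smallest unadjusted p at 5 or more reads (p = 0.0566, adjusted p = 0.669 by the quasi-binomial model). It differed there by -2.23 points (interval -4.66 to 0.19), and by -1.22 points (interval -2.73 to 0.29) at 1 or more reads. In limma 0 of 3 windows passed either comparison, with Snrpn under 0.05 before adjustment in each (adjusted p = 0.685 and 1.0 by limma), as were 7.03% and 3.22% of all windows. The 2 stretches of Kcnq1ot1 fall in separate 500-bp tiles. At 1 or more reads, a setting that was not planned, 0 of 17 tiles of the imprinted windows passed either comparison. The smallest adjusted p was 0.851 and 0.735 by the quasi-binomial model. Before adjustment 1 and 2 of these tiles were under 0.05, as were 4.82% and 6.74% of all tiles.

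**Figure D5:**
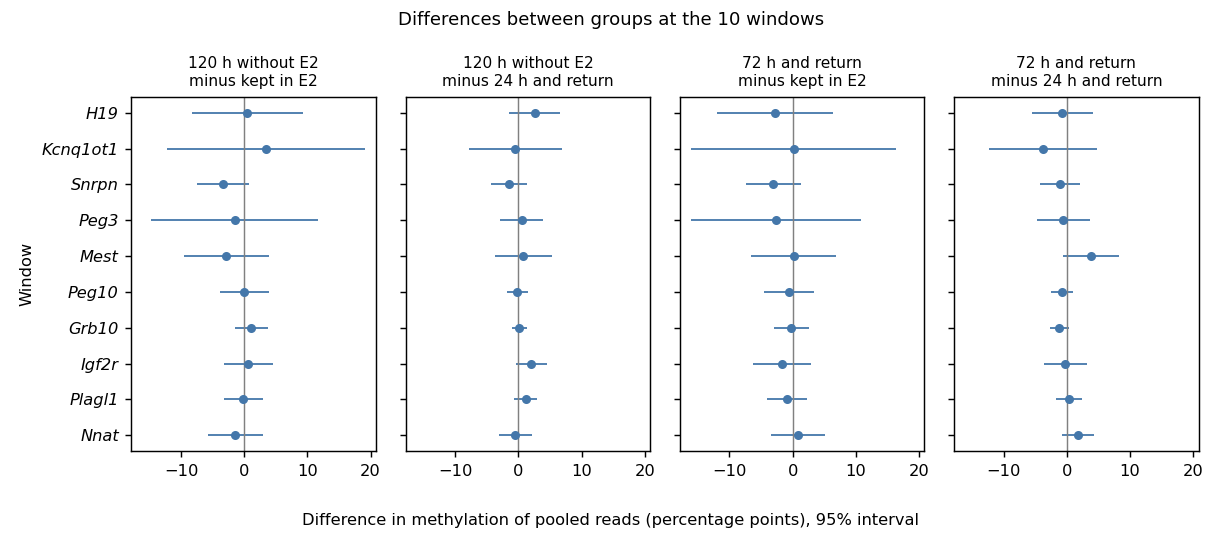
Difference in methylation of pooled reads (x axis, percentage points) with its 95% interval for each of the 10 windows (y axis) in 4 comparisons, at 1 or more reads per CpG. All 40 intervals include 0, and they are widest where the single E2 library is compared at Kcnq1ot1 and Peg3.

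Across the 4 returned groups, methylation was also tested for a slope on hours without E2. Here 0 of 10 and 0 of 3 windows passed (0.0335% and 0.0539% of all windows), with 0 under an unadjusted p of 0.05 and 0 of 3 in limma. Nnat had the smallest unadjusted p (p = 0.0721, adjusted p = 0.785 by the quasi-binomial model). Kcnq1ot1 had a slope of -0.08 in log odds per 24 h (adjusted p = 0.916 by the same model). A p above the threshold does not show that levels were equal. Between 120 h and E2 the interval at Kcnq1ot1 still held a difference of 19.1 points. The intervals use a spread between replicates (dispersion) drawn toward that of all windows. At 1 or more reads, the dispersion of Kcnq1ot1 itself was 2.73 and that of Plagl1 2.5, against a median of 1.08 over all windows. The intervals of these windows are therefore narrower than their own replicates alone would give.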

How the data were processed

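RRBS data of 11 libraries were analysed. The deposited tables give, per CpG, counts of methylated reads and of all reads, and a score, which equals 1000 times the methylated share in every library. Counts were used and the score was not tested. The build was mm9, per the submitters' processing notes; aligner, caller and duplicate treatment are not given in the sources used here. Positions are 1-based mm9. RefSeq promoters (GRCm38.p6) were matched by CG spacing, and no coordinates were converted.

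Groups came from the labels. Reads were summed over CpGs per window, over the 10 windows and all 5-kb windows that do not overlap them, at a minimum of 3 CpGs. A quasi-binomial model with 1 mean per group (or a slope on hours) gave two-sided deviance F tests, with dispersions moderated across windows as in limma and not below 1, adjusted by Benjamini-Hochberg over all windows at 0.05. The planned minimum of 5 reads in all 11 libraries left 3 imprinted windows, so levels are given at 1 read. Interval widths come from the same dispersions and from shares with 1 read of each kind added per group. The differences themselves use the counts without this addition. Python 3.11.15, numpy 2.4.6, scipy 1.17.1, R 4.3.3 and limma 3.58.1 were used. The test was tried on simulated data, with changes added only to windows of intermediate level. It does not tell how well changes near full methylation are found.

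All 10 windows are named, with the lowest and highest 500-bp tile of 3 or more CpGs where there is one (Peg3 has none). Other CpGs were singled out after their values were seen. The members and lists were chosen with earlier results of these data known. No pairing by replicate number was seen: correlations of replicate differences between groups were -0.005 to 0.03 over 10 group pairs. Counting error makes up much of these differences (mean chi-square of 1.35 to 1.57 per group over all windows, at 1 or more reads). Low correlations therefore cannot exclude a pairing. Replicates may be technical, and p-values then cover that spread alone. Wilson intervals cover counting error only.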

Additional observations from a re-analysis of the deposited data

How the results depend on the processing

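The count of windows past the threshold was 0 in all 6 tests and in all 74 alternatives that could test an imprinted window (the smallest adjusted p of each ranged from 0.512 to 1.0). Leaving out each replicate in turn gave 0 to 0. Only the alternatives at 1 read per CpG, in windows or 500-bp tiles, reached windows other than Snrpn, Grb10 and Plagl1. Kcnq1ot1 was thus not tried in limma, with a replicate block or with a replicate left out. At 10 reads per CpG no imprinted window could be tested or given a level. A replicate block was tried though no pairing by number was seen. It could be fitted in 4 tests (not the 2 against the E2 library), and 0 imprinted windows passed. The fit with a block also left out the E2 library. For any difference among the groups it called 0 over all windows, against 17 with all 6 groups and no block. The effect of the block and that of leaving out E2 cannot be told apart here. Without a block, the count for any difference among the 6 groups was 52 at 1 read, 1 at 10 reads, 2 in limma and 1 in 500-bp tiles. Leaving out 1 library gave 0 to 16. For the other tests, calls over all windows ranged over the alternatives from 0 to 6 (main 1) for 120 h against E2, 0 to 86 (main 21) for 120 h against 24 h, 0 to 9 (main 3) for 72 h against E2, 0 to 58 (main 24) for 72 h against 24 h, and 0 to 35 (main 22) for the slope; the cause was not tested.

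The number of windows at 90% or more was 3 of 3 at 5 reads and 9 of 10 at 1 read. Weighting each CpG equally at 1 read gave 8 of 10, with Mest at 89.5%. Without the 4 shallow libraries of 40 and 56 h it was 9 of 10 at 1 read and 8 of 9 at 5 reads, with Kcnq1ot1 at 36.7% ± 8.42 (SD, n = 7). Both of these and the equal weighting at 1 read were chosen after seeing the data. For 120 h against E2, the Grb10 difference at 5 reads was -1.37 points (interval -6.47 to 3.72) and 0.06 points (interval -4.73 to 4.86) when 120 h replicate 1 or 2 was left out. Partly methylated CpGs were 2 of 31 at 5 reads, 15 of 148 at 1 read and 0 of 2 at 10 reads; here fewer CpGs enter. Depth limits the single CpGs most: in the 40 and 56 h libraries a CpG often rests on under 5 reads.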

Other observations

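The 10 kb on each side of the windows held 151 CpGs read in all libraries, and the loci differed there; these CpGs were looked at after their values were seen. Beside Nnat, 35 of 47 CpGs were below 20%, all of them on the side of the Blcap promoter, whose 6 CpGs carried 1 methylated read of 890 (0.11%). Beside Grb10 all 54 CpGs, and beside Peg10 all 16, were at 90% or more. The 2 CpGs beside Kcnq1ot1, 4347 and 4273 bp outside the window, were methylated in 45.9% of 133 reads and 53.5% of 185 reads, an intermediate level like that of the window.

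Beside Mest, 10 CpGs at chr6:30677154-30677536 lay at 67.5% to 83.8%, while the other 10 CpGs of its flanks were at 90% or more. The first 10 followed one another at nearly regular distances, and whether they lie in a repeated sequence was not tested. Beside Igf2r, 3 neighbouring CpGs differed widely, with 98.0% of 255 reads methylated at 12944149, 62.0% of 237 at 12944174 and 13.9% of 303 at 12944229.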
